A study of Mus musculus with 22 samples.

Results

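The 10 genes described here serve MHC class I presentation in the mouse: the heavy chains H2-K1, H2-D1, H2-Q4, H2-Q6, H2-Q7 and H2-T23, the light chain B2m, the peptide transporter subunits Tap1 and Tap2, and the transactivator Nlrc5. They were chosen by name, without a threshold on any measured value, and are 10 of the 31053 genes in the count tables. Their RNA was measured by droplet single-cell sequencing (10x, 3′ chemistry) in 22 libraries of 3 kinds. The first kind, called ntCZC here, holds ZsGreen+ cells sorted from the blood of mice without tumours. The second holds dissociated kidney, liver, lung and stomach pooled with epididymis or uterus. The third is labelled PBMC, for peripheral blood mononuclear cells. Every labelled strain carries Prom1-CreERT2 and Rosa26ZSG, so that after tamoxifen cells with an active Prom1 promoter, and all their descendants, are marked green. Mice with Nalcn-het or Nalcn-null in the strain name form the het and null groups, in which Cre also deletes 1 (het) or both (null) copies of Nalcn, the gene of a sodium leak channel, and the strain without either forms the wt group. Of the ntCZC libraries, 2 came from wt, 4 from het and 4 from null mice. Of the tissue libraries, 5 were wt, 2 het and 2 null, and 2 more have no group because title and strain disagree on the genotype. The PBMC library was wt. The PBMC mouse was male and 120 days old, and the other mice were of both sexes and 551 to 654 days old. The labels name no individual animals, so that p-values measure the spread between libraries, and they give no MHC haplotype. The study's methods describe mixed B6/FVB/N mice, so that libraries may carry different class I alleles, and reads of alleles unlike the reference genome could be counted unequally.

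On nucleated cells, class I molecules hold peptides cut from the cell's own proteins and show them to CD8 T cells, while loss of the molecules is read by NK cells. Proteasomes cut the peptides, the Tap1-Tap2 transporter carries them into the endoplasmic reticulum, and a heavy chain folds around a peptide together with B2m, the invariant light chain. H2-K1 and H2-D1 are classical heavy chains with very many alleles, whereas H2-Q4, H2-Q6, H2-Q7 and H2-T23 are nonclassical ones with few alleles. H2-T23 encodes the heavy chain of Qa-1, which shows leader peptides of other class I chains to the receptor NKG2A on NK cells. H2-Q7 encodes a chain of Qa-2, of which H2-Q6 is a close relative. Nlrc5 drives transcription of class I genes through a set of elements shared by their promoters. In the GRCm38 annotation, 8 of the 10 genes lie on chromosome 17, from H2-K1 (ENSMUSG00000061232, 33996017 to 34000347, minus strand) through Tap1 (34187553 to 34197225), Tap2 (34203527 to 34216321) and H2-D1 (ENSMUSG00000073411, 35262730 to 35267499) to the Q genes (35379617 to 35443773) and H2-T23 (36029773 to 36032855). B2m lies on chromosome 2 (122147686 to 122153083) and Nlrc5 on chromosome 8 (94434356 to 94527272). Counting could split reads between the near-identical H2-Q6 and H2-Q7, and to a lesser degree among the other heavy chains, so a value of a single heavy chain carries that uncertainty.

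Levels are given in CPM, the unique molecular identifiers (UMIs) of a gene per 1000000 UMIs of the same cells. With 3′ counting and unknown capture of each transcript, levels were compared between cells and libraries and not between genes. The ntCZC libraries held 50 to 621 barcodes and 161541 to 2600526 UMIs each, the tissue libraries 1856 to 27857 barcodes and 8571019 to 139793927 UMIs, and the PBMC library 752 barcodes and 1422144 UMIs. Nalcn itself had 0 UMIs in every ntCZC library and in PBMC and 0 to 18 in each tissue library, too few to check the genotype labels. In ntCZC wt replicate 3, which stood apart, 73.5% of UMIs came from haemoglobin genes and 11 cells passed the cell filter. Any pair of libraries shared at most 226 cell barcodes, at most 2.60% of the smaller library. The hashtags that mark the organ were not used here, so no cell is assigned to an organ.

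Cells were assigned to classes with 8 marker genes per class, none of which is a class I gene. A cell took the class with the most detected markers, if at least 3 were detected and the lead over the next class was at least 2. A class name stands for cells like that type, as it rests on these markers alone. This gave a class to 1740 of 2109 ntCZC cells, 35438 of 60905 tissue cells and 614 of 679 PBMC cells. Tissue classes were summed into leukocyte (18936 cells, 9 libraries), endothelial (9599 cells, 9 libraries), epithelial (4897 cells, 8 libraries) and mesenchymal (1695 cells, 8 libraries) compartments, counting a library where it held at least 20 such cells. The defining markers followed the names, with RNA of other cells present at a lower level: the leukocyte gene Ptprc averaged 720 CPM in leukocytes, 68.9 in endothelium, 59.1 in epithelium and 38.9 in mesenchyme. The epithelial gene Epcam averaged 278 CPM in epithelium, 37.0 in leukocytes, 12.1 in endothelium and 9.56 in mesenchyme, and Cdh1 averaged 138, 19.3, 7.84 and 5.08 CPM in the same order.

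In the organs, epithelium had the lowest mean level of each of the 10 genes, and endothelium the highest mean of 9, a difference from leukocytes that was not tested. All 10 genes were higher in endothelial than in epithelial cells, by 2.82-fold for B2m to 12.3-fold for H2-Q6, and all 10 were higher in leukocytes than in epithelium. In mesenchyme, 9 of 10 were higher than in epithelium, a count that was 7 to 9 when each library was left out and 4 (H2-D1, H2-K1, H2-Q4 and Tap2) with a looser gate of 2 markers and a lead of 1. Among all 12783 genes tested in this fit (edgeR quasi-likelihood with the library as a block, Benjamini-Hochberg adjusted p under 0.05), 35.3% were higher and 35.6% lower in endothelium, 34.3% higher and 38.4% lower in leukocytes, and 27.7% higher and 29.9% lower in mesenchyme. The median log2 difference from epithelium over the 10 genes was 2.24 in endothelium, 1.97 in leukocytes and 1.00 in mesenchyme, against -0.02, -0.05 and -0.05 over all genes. Mesenchyme here joins unlike classes: the heavy chains summed to 702 CPM in smooth muscle or pericyte cells, 2148 CPM in fibroblasts and 3698 CPM in mesothelial cells. Its values describe the mixture and not each class in it.

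The Q-region genes were furthest apart. H2-Q4 ran from 13.2 to 33.0 CPM in the epithelial samples (median 21.8) and from 179 to 477 CPM in the endothelial ones (median 236), a log2 difference of 3.41 (SE 0.26, adjusted p = 3.31e-12). H2-Q6 ran from 8.76 to 64.2 CPM (median 16.5) in epithelium and from 142 to 383 CPM (median 252) in endothelium, a log2 difference of 3.62 (SE 0.24, adjusted p = 3.33e-13). H2-Q7 ran from 16.8 to 111 CPM (median 33.9) and from 186 to 747 CPM (median 355), a log2 difference of 3.14 (SE 0.25, adjusted p = 8.93e-12). For these genes every endothelial sample was above every epithelial sample. The epithelial maximum of H2-Q6 and of H2-Q7 came from tissue wt replicate 4, and the endothelial maximum of all 3 genes from tissue het replicate 1.

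The classical heavy chains and the light chain differed less between endothelium and epithelium. H2-K1 averaged 514 ± 149 CPM (SD, n = 8) in epithelium and 1920 ± 374 CPM (n = 9) in endothelium, with ranges of 349 to 718 and 1497 to 2665 CPM and a log2 difference of 1.73 (SE 0.15, adjusted p = 7.45e-11). H2-D1 averaged 343 ± 198 CPM in epithelium, where the highest sample, tissue wt replicate 2, reached 820 CPM and the median was 277 CPM, and 1618 ± 419 CPM in endothelium, a log2 difference of 2.15 (SE 0.19, adjusted p = 5.54e-11). B2m averaged 713 ± 233 CPM and 2280 ± 486 CPM, a log2 difference of 1.50 (SE 0.17, adjusted p = 1.03e-08). None of the 3 overlapped between these compartments, and each was close in leukocytes to its endothelial level: 1430 ± 337 CPM for H2-K1, 1339 ± 247 CPM for H2-D1 and 1834 ± 314 CPM for B2m (n = 9). In mesenchyme they averaged 1039 ± 270, 773 ± 166 and 1169 ± 257 CPM (n = 8), with log2 differences from epithelium of 0.93, 1.15 and 0.63 (SE 0.15, 0.19 and 0.17) and ranges that overlapped epithelium.

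The transporter subunits and the transactivator were also higher outside epithelium. Tap1 ran from 8.79 to 52.5 CPM (median 12.4) in epithelium, from 63.7 to 177 CPM (median 101) in endothelium and from 53.5 to 166 CPM (median 71.6) in leukocytes, with log2 differences from epithelium of 2.46 (SE 0.25) and 2.24 (SE 0.25). Tap2 ran from 8.90 to 23.4 CPM (median 13.7) in epithelium, from 41.1 to 145 CPM (median 71.3) in endothelium and from 20.9 to 64.0 CPM (median 44.2) in leukocytes, with log2 differences of 2.26 (SE 0.18) and 1.67 (SE 0.18). Epithelial and endothelial samples did not overlap for either subunit, and Tap2 overlapped between epithelium and leukocytes. Nlrc5, the transactivator, had the lowest counts of the set, at 1.96 to 19.5 CPM in epithelium, 9.94 to 36.9 CPM in endothelium and 13.6 to 60.1 CPM in leukocytes, with log2 differences of 1.96 (SE 0.27) and 2.23 (SE 0.26). It was the 1 gene whose endothelial and epithelial samples overlapped, and the 1 gene not called in mesenchyme (log2 0.52, SE 0.38, adjusted p = 0.254). H2-T23 averaged 62.6 ± 40.4 CPM in epithelium, 320 ± 151 CPM in endothelium and 171 ± 62.5 CPM in leukocytes. Without overlap between libraries, 9 of 10 genes were higher in endothelium than in epithelium, where 16.4% of all genes were higher and 13.7% lower without overlap. In leukocytes 7 of 10 were, against 11.4% higher and 19.4% lower, and in mesenchyme 1 of 10, H2-Q4, against 9.85% and 9.24%.

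**Figure D1:**
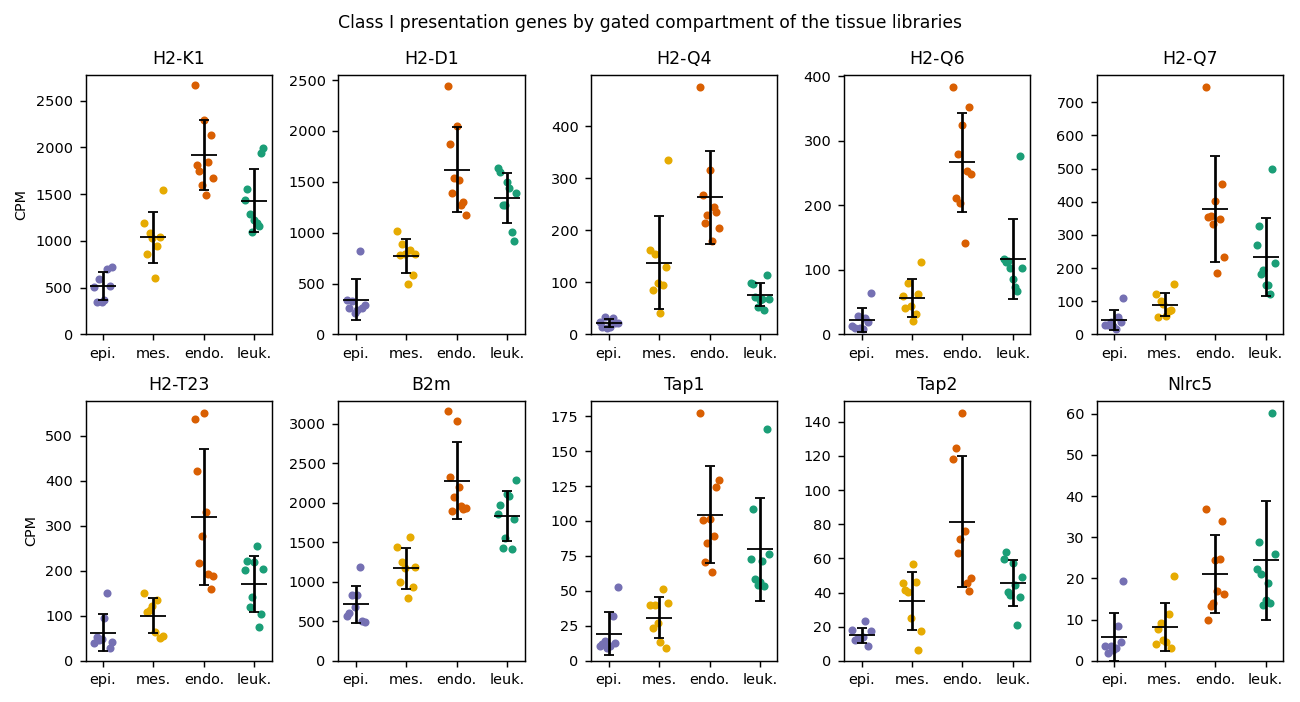
Level of each of the 10 genes, in CPM (linear axes from 0, a different scale per gene), in the epithelial, mesenchymal, endothelial and leukocyte compartments of the tissue libraries. Coloured points are libraries (8, 8, 9 and 9) and black bars are the mean ± SD. The epithelial mean is lowest for each gene, though epithelial points overlap mesenchymal ones for every gene but H2-Q4. H2-Q4 points lie at 13.2 to 33.0 CPM in epithelium and at 179 to 477 CPM in endothelium.

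The remaining pathway genes were taken from lists of partners with known roles. Of the immunoproteasome list, Psmb8, Psmb9 and Psmb10 encode the catalytic subunits that replace Psmb5, Psmb6 and Psmb7 in immune cells or under interferon. The replacing subunits were higher than in epithelium in all 3 compartments, with log2 differences of 2.46, 2.66 and 2.02 in leukocytes, 1.97, 2.55 and 2.28 in endothelium, and 0.71, 0.83 and 1.43 in mesenchyme. The constitutive Psmb5, Psmb6 and Psmb7 were lower in endothelium (-1.08, -0.84 and -0.55) and in mesenchyme (-0.87, -0.52 and -0.60), and in leukocytes only Psmb5 was lower past the threshold (-0.47). These 6 subunits were singled out as a set after their values were seen. In all, 6 of the 9 genes of that list were higher and 1 lower in leukocytes, and 5 were higher and 4 lower in each of endothelium and mesenchyme. Of all genes, 34.3% were higher and 38.4% lower in leukocytes, 35.3% and 35.6% in endothelium, and 27.7% and 29.9% in mesenchyme.

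**Figure D2:**
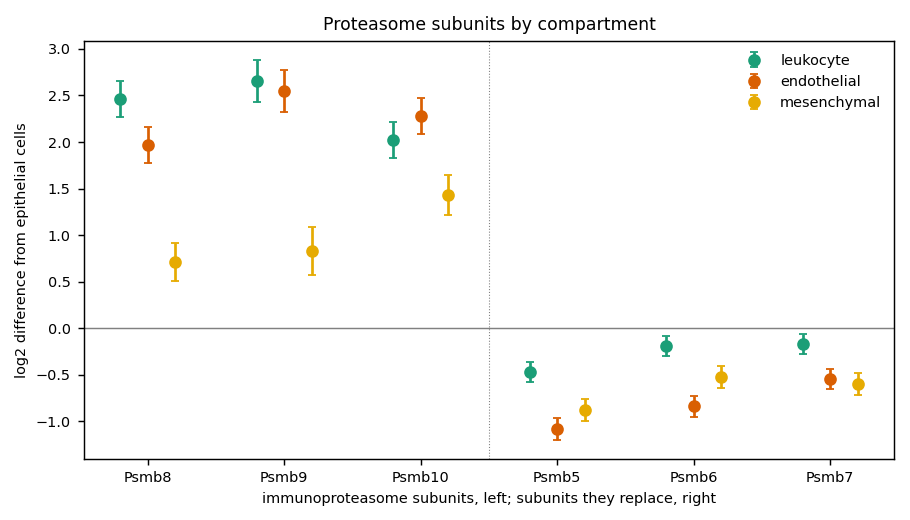
Log2 difference from epithelium (y axis) of the immunoproteasome subunits Psmb8, Psmb9 and Psmb10 and of the constitutive subunits Psmb5, Psmb6 and Psmb7 in 3 tissue compartments, with bars of 1 SE. The immunoproteasome subunits lie above 0 in each compartment (0.71 to 2.66), and the constitutive ones lie below 0 in endothelium and mesenchyme.

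Among the 9 genes of peptide loading and trimming, 4 were higher and 1 lower in leukocytes, 4 higher and 4 lower in endothelium, and 3 higher and 1 lower in mesenchyme, and the share that was higher was near that of all genes in each. Tapbp, which bridges the transporter and the empty heavy chain, was higher in each (log2 1.49, 1.72 and 1.41), whereas the general chaperones Hspa5 and Calr were lower in endothelium (-0.67 and -0.63) and the peptidase Ide was lower in leukocytes and in endothelium (-0.67 and -0.68). Of 14 regulators of class I transcription, 9 were higher in leukocytes, 9 higher and 1 lower in endothelium, and 8 higher and 1 lower in mesenchyme. Irf1, an interferon-induced activator, was among the most raised in endothelium (3.50) and mesenchyme (2.25), and Nfkb1 rose in mesenchyme (2.06). Of 8 other class I and class I-like genes with enough counts, 7 were higher and 1, Mr1, lower (-0.66) in leukocytes, 6 were higher in endothelium, led by H2-T24 (3.73) and H2-M3 (2.36), and 3 were higher in mesenchyme. Of the list of class I receptors, coreceptors and related inhibitory receptors, 6 of 6 tested were higher in leukocytes, 1 of 6 in endothelium and 0 of 6 in mesenchyme. A gene was tested if enough samples held it, and the leukocyte samples alone could be enough. Genes seen mainly in leukocytes could thus enter only through the compartment where they were high, so 6 of 6 is no independent result. Those raised in leukocytes included the inhibitory receptors Lilrb4a (4.81) and Pirb (4.30) and the coreceptor chains Cd8b1 (3.58) and Cd8a (3.52).

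Within compartments the classes covered a wide range. Over the 18 classes found in at least 5 tissue libraries, the sum of the 6 heavy chains rose from 702 ± 260 CPM (SD) in smooth muscle or pericyte cells through 815 ± 453 CPM in kidney proximal tubule, 882 ± 312 CPM in ciliated, 942 ± 287 CPM in epididymal and 1561 ± 1088 CPM in gastric mucous cells. Fibroblasts (2148 ± 520 CPM), alveolar macrophages (2306 ± 178 CPM), plasma cells (2771 ± 883 CPM), dendritic cells (2854 ± 423 CPM), classical monocytes (2934 ± 399 CPM) and neutrophils (3170 ± 656 CPM) came next. Mesothelial cells (3698 ± 1051 CPM), B cells (3757 ± 522 CPM), macrophages (3969 ± 578 CPM), nonclassical monocytes (4615 ± 934 CPM), endothelial cells (4767 ± 1145 CPM), T cells (5184 ± 753 CPM) and NK cells (6264 ± 679 CPM) held the most. None of the 17 neighbouring pairs passed the threshold (exact two-sided sign-flip permutation test over libraries holding both classes, smallest adjusted p = 0.452). With 3 to 8 libraries a pair, the smallest p that the test allows is 0.25 to 0.0078, so that a single pair could not have passed after adjustment.

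B2m followed a related but different order. It was lowest in ciliated (296 ± 83.3 CPM) and smooth muscle or pericyte cells (309 ± 101 CPM), then proximal tubule (581 ± 382 CPM), gastric mucous (667 ± 500 CPM), epididymal cells (1133 ± 282 CPM) and fibroblasts (1249 ± 279 CPM). Alveolar macrophages (1411 ± 256 CPM), dendritic cells (1480 ± 261 CPM), B cells (1523 ± 249 CPM), neutrophils (1602 ± 348 CPM), mesothelial cells (1799 ± 653 CPM), classical monocytes (1938 ± 343 CPM) and NK cells (2098 ± 412 CPM) lay in the middle. T cells (2183 ± 503 CPM), endothelial cells (2280 ± 486 CPM), macrophages (2457 ± 459 CPM), plasma cells (2510 ± 236 CPM) and nonclassical monocytes (2873 ± 586 CPM) were at the top. Here too 0 of 17 neighbouring pairs passed the threshold. The nearest to it was proximal tubule over smooth muscle or pericyte cells, higher in 8 of 8 libraries (exact permutation p = 0.0078, the smallest this number of libraries can give, adjusted p = 0.133). NK cells had the highest sum of heavy chains and stood below 5 other classes for B2m.

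The individual genes peaked in different classes. H2-K1 was highest in NK cells (2869 ± 386 CPM) and lowest in smooth muscle or pericyte cells (301 ± 85.5 CPM), a ratio of 9.54, and H2-D1 was highest in nonclassical monocytes (2217 ± 515 CPM), 7.98 times its lowest class. For Nlrc5, the gene with the fewest counts, the ratio of the means was 81.8. Its lowest mean, 0.884 CPM in smooth muscle or pericyte cells, was smaller than its own SD between libraries. The size of that ratio, and its rank among the genes, are therefore uncertain. Among the other genes the Qa-2 genes had the widest ratios, 70.2 for H2-Q6 and 55.0 for H2-Q7. They were at 432 ± 125 and 854 ± 179 CPM in NK cells against 6.15 ± 5.68 and 15.5 ± 7.87 CPM in epididymal cells. H2-Q4 and H2-T23 peaked in endothelium (263 ± 89.1 and 320 ± 151 CPM). Both transporter subunits peaked in dendritic cells, which present antigen to naive T cells (220 ± 58.8 CPM for Tap1 and 84.2 ± 28.0 CPM for Tap2), and Nlrc5 peaked in T cells (72.3 ± 30.7 CPM). The first and last class of a gene are the extremes of 18 and are given as description.

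**Figure D3:**
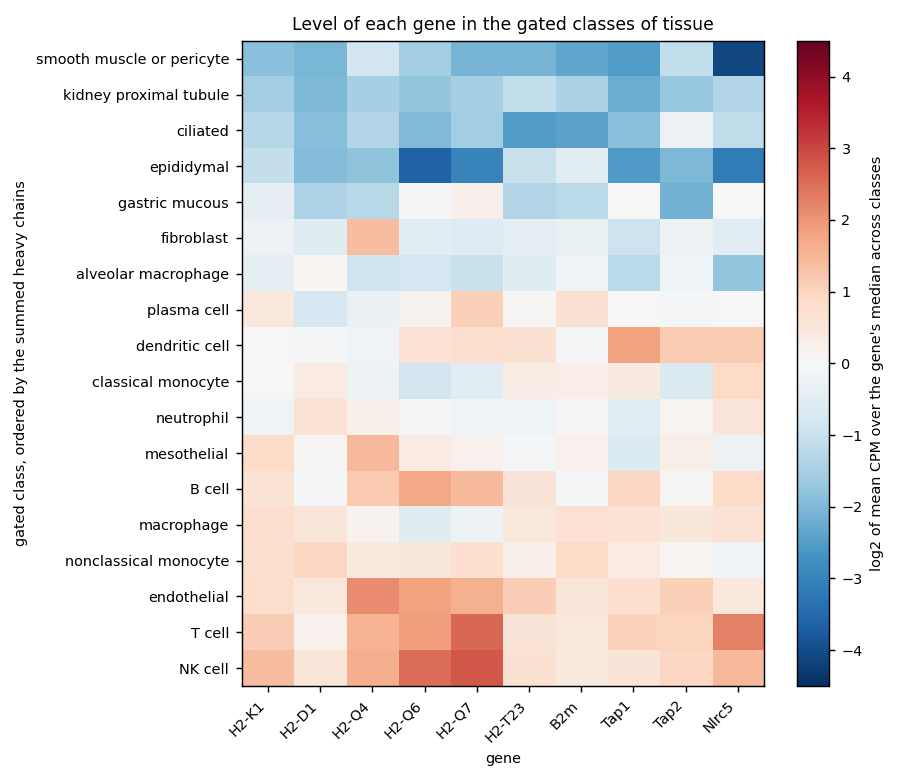
Heat map of the mean level of each gene (columns) in the 18 gated classes of tissue (rows, ordered by the summed heavy chains), as log2 of the mean CPM over the gene's median across classes, with red above and blue below the median. The top and bottom rows are smooth muscle or pericyte cells (702 CPM of heavy chains) and NK cells (6264 CPM). The deepest blue is Nlrc5 in smooth muscle or pericyte cells, at 0.884 CPM, a mean smaller than its SD between libraries.

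Across the 18 classes the genes varied together: Pearson's r of mean log2(CPM + 1) ran from 0.651 for H2-Q4 with Tap1 to 0.976 for H2-Q6 with H2-Q7 over the 45 pairs, with a median of 0.805. The classes come from the same libraries and share their depth and free RNA, and reads of H2-Q6 and H2-Q7 may be exchanged, so these values are descriptive. Of 11899 genes outside the lists, those most like the mean of the 10 genes were Gbp9 (r = 0.898), Sp110 (0.897), Psme2b (0.886), Zc3hav1 (0.876) and 9930111J21Rik2 (0.870). Gbp9 belongs to the interferon-induced guanylate-binding proteins, and Zc3hav1 encodes an antiviral protein that binds foreign RNA.

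Because these genes varied together, the promoters of 4 of them are shown with the letters of the shared class I promoter elements. RefSeq promoters (GRCm38.p6, 250 bases before to 50 after the start) were found for 8 of the 10 genes, not for Tap2 and Nlrc5. The search covered 4 strings on both strands: GGGGATTCC, a kappa B type site in what is called enhancer A; GAANNGAAA, an interferon response element; TGACG, the core of the X2 box; and CCAAT, the core of the Y box. Capitals mark each match, on either strand. The strings were settled after looking at these promoters.

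H2-K1: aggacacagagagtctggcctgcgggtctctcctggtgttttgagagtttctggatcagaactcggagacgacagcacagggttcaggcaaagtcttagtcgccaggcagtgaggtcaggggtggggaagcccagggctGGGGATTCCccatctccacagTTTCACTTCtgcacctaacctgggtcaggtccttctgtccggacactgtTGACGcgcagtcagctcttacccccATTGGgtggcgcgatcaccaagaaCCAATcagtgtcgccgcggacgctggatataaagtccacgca
H2-D1: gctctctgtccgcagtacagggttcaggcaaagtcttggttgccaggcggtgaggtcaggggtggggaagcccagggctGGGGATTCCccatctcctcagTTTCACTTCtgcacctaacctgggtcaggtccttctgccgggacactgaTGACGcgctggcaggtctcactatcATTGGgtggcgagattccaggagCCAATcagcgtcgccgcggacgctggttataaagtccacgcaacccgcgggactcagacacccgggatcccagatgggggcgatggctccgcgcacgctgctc
H2-Q7: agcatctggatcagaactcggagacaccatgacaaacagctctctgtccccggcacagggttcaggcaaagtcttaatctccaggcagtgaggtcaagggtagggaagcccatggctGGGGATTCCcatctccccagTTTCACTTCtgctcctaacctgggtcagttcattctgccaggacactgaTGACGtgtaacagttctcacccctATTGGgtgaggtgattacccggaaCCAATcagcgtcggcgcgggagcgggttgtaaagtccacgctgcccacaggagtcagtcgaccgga
B2m: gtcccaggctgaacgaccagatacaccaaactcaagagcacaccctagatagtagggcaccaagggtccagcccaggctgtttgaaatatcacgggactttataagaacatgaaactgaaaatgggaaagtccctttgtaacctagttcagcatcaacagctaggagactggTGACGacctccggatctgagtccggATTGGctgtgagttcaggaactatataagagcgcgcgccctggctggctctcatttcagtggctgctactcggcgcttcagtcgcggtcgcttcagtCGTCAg

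These windows are chr17:34000298-34000597 on the minus strand for H2-K1 (the first of 2 entries), chr17:35262844-35263143 on the plus strand for H2-D1, chr17:35438905-35439204 on the plus strand for H2-Q7 and chr2:122147437-122147736 on the plus strand for B2m. GGGGATTCC stood in 4 of the 8 promoters (H2-K1, H2-D1, H2-Q6 and H2-Q7) and in 0.250% of all 32851 promoters, and GAANNGAAA in 5 of 8, the same 4 and H2-Q4, against 7.52% of all. TGACG stood in 6 of 8 (20.8% of all) and CCAAT in 8 of 8 (37.4% of all). The first matches of the 4 strings were spaced by 21, 49 and 25 bases, left end to left end, in both H2-K1 and H2-D1 and by 20, 49 and 24 bases in H2-Q7. The B2m window held TGACG and CCAAT and no match to the exact letters of the other 2 strings. Other forms of these elements were not searched for, so a missing match does not show that the element is absent. The Tap1 window shared 275 bases with that of Psmb9, which is transcribed the other way. A match describes letters in the window and says nothing of binding.

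Sorted ZsGreen+ blood cells were compared with the organs of the same study to ask how the circulating cells differ. In whole libraries, 6 of the 10 genes were higher in ntCZC and 0 lower, where 28.5% of the 10681 genes tested were higher and 36% lower (edgeR quasi-likelihood with sex as a covariate). H2-D1 showed the largest difference, 3.76-fold, and whether alleles that count unequally take part in this or in the Q-gene differences was not tested. H2-K1, H2-Q4, H2-T23, Tap1 and Tap2 were 1.57-fold to 2.06-fold higher, and B2m, H2-Q6, H2-Q7 and Nlrc5 did not pass the threshold. The mix of cells differs between a blood sort and an organ digest, and in whole libraries fewer cells of a type and less RNA per cell cannot be told apart.

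H2-D1 ran from 681 to 4177 CPM in the 10 ntCZC libraries (median 3149) and from 562 to 1250 CPM in the 9 tissue libraries (median 677), a log2 difference of 1.91 (SE 0.19, adjusted p = 2.12e-08). Apart from ntCZC wt replicate 3, the library richest in haemoglobin, at 681 CPM, every ntCZC library (2256 CPM or more) was above every tissue library. H2-K1, the other classical chain, ran from 365 to 2439 CPM (median 1692) in ntCZC and from 718 to 1437 CPM (median 927) in tissue, a log2 difference of 0.65 (SE 0.17, adjusted p = 0.00226). Tap2 ran from 31.0 to 109 CPM (median 61.2) in ntCZC and from 17.5 to 43.8 CPM (median 27.9) in tissue, a log2 difference of 1.04 (SE 0.15, adjusted p = 4.05e-06). Both overlapped between the kinds, at the low end of ntCZC.

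H2-Q4 averaged 126 ± 42.2 CPM (SD, n = 10) in ntCZC and 70.5 CPM in tissue (n = 9, median 59.9, highest 111) (log2 0.86, SE 0.22, adjusted p = 0.0022), with ntCZC het replicate 4 highest at 234 CPM. H2-T23 ran from 61.9 to 348 CPM (median 249) in ntCZC and from 59.1 to 228 CPM (median 100.1) in tissue (log2 0.95, SE 0.22, adjusted p = 0.000644), and Tap1 from 12.4 to 152 CPM (median 92.5) and from 28.6 to 112 CPM (median 41.3) (log2 0.76, SE 0.23, adjusted p = 0.00739). None of the 10 genes separated the kinds completely, as 0.693% of all genes did with ntCZC higher and 14.4% with ntCZC lower. B2m averaged 1494 ± 568 CPM in ntCZC and 1152 ± 272 CPM in tissue (log2 0.31, adjusted p = 0.128). It passed the threshold without ntCZC wt replicate 3 (log2 0.40, adjusted p = 0.0176), which made 7 genes higher. The median difference over all genes was -0.08 with the scaling used (TMM) and -0.30 with RLE scaling, under which 2202 genes were higher and 4736 lower in place of 3042 and 3849. The 6 calls held under both, and Nlrc5 turned from 0.04 to -0.17.

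Of the lists, to be read against the 28.5% of all genes that were higher and the 36% lower, 5 of 9 immunoproteasome genes were higher and 0 lower, among them Psmb8 (log2 1.94) and Psmb10 (1.45). Peptide loading and trimming split into 4 higher and 3 lower of 9, with the lectin chaperone Canx (-0.99) and the peptidase Ide (-1.13) lower, which is near those shares. Regulators of transcription counted 5 higher, led by Irf2 (1.45), and 1 lower, Rfx5 (-0.64), of 14, the share higher again near that of all genes. Other class I-like genes counted 4 higher and 2 lower of 8, with the iron regulator Hfe higher (2.75) and Mr1 (-2.24) and Cd1d1 (-0.63), which present metabolites and lipids, lower. Of the receptors, 2 of 6 were higher, Pirb by 2.06.

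The 2 classes with enough cells in both kinds were also tested on their own, though the kinds differ in genotype as well: the ntCZC monocytes came from 1 wt, 3 het and 3 null libraries and the ntCZC B cells from 4 het and 2 null, against 4 wt, 2 het and 2 null tissue libraries for both. In nonclassical monocytes, the patrolling monocytes that make up most of the gated ntCZC cells, 2 of 9 genes tested were higher and 1 lower in ntCZC, against 9.48% and 16.5% of the 3638 genes tested (345 higher and 601 lower, or 471 and 525 with RLE scaling). H2-D1 was 4325, 4194 and 5155 CPM in ntCZC het replicates 1, 2 and 4, 5534, 4544 and 4030 CPM in null replicates 1, 2 and 4, and 3838 CPM in wt replicate 1. In tissue it was 2262, 2149, 2054 and 1822 CPM in wt replicates 1 to 4, 3151 and 2712 CPM in het replicates 1 and 2, and 1486 and 2100 CPM in null replicates 2 and 3. The kinds did not overlap, and the log2 difference was 0.75 (SE 0.15, adjusted p = 0.000637). Tap2 ran from 59.4 to 103 CPM in the 7 ntCZC libraries (median 77.9) and from 15.8 to 56.6 CPM in the 8 tissue libraries (median 40.5), also without overlap (log2 0.54, SE 0.20, adjusted p = 0.0467). Tissue counts were thin: H2-D1 itself had 130 UMIs in the monocytes of wt replicate 3 and 41 in those of null replicate 2, and Tap2 far fewer. The lack of overlap for Tap2 thus carries a large counting error. Of all genes, 6.18% were higher and 2.09% lower in ntCZC without overlap. B2m was lower in ntCZC on the scaled counts (log2 -0.39, SE 0.14, adjusted p = 0.0406), with unscaled levels that overlapped almost fully, at 2130 to 2996 CPM (median 2804) against 2174 to 3920 CPM (median 2803).

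H2-K1 did not differ detectably in these monocytes (2288 ± 588 CPM, n = 7, against 1823 ± 524 CPM, n = 8, log2 0.05, interval of 2 SE from -0.29 to 0.40, adjusted p = 0.864), nor did H2-Q4, H2-Q6, H2-Q7, H2-T23 and Tap1 pass the threshold. The call of B2m was lost with RLE scaling (log2 -0.33, adjusted p = 0.0685), the looser gate (-0.37, 0.0751), no doublet removal (-0.31, 0.0961) and a low filter on counts (-0.22, 0.429), and that of Tap2 with the replicate number as a block (log2 0.54, adjusted p = 0.105) and without the sex covariate (0.53, 0.0517). With genotype as a covariate, or with het and null libraries alone, both chosen after seeing the data, H2-D1 was the 1 gene called (log2 0.69 and 0.73, adjusted p = 0.00466 and 0.00706). B2m (log2 -0.43 and -0.32, adjusted p = 0.0713 and 0.152) and Tap2 (log2 0.44 and 0.49, adjusted p = 0.199 and 0.214) kept their direction without passing the threshold. The count likewise fell to 1 gene, H2-D1, without any one of tissue wt replicate 1, tissue wt replicate 4, tissue het replicate 1, tissue het replicate 2, ntCZC het replicate 1 or ntCZC null replicate 2, with B2m still lower and Tap2 still higher in each. The call of B2m alone was lost without ntCZC wt replicate 1, ntCZC het replicate 2, ntCZC null replicate 1 or tissue null replicate 3. That of Tap2 alone was lost without tissue wt replicate 2 or 3, tissue null replicate 2 or ntCZC het replicate 4. Without ntCZC het replicate 4, H2-Q6 was called lower (log2 -1.11, adjusted p = 0.0348). Of the lists, to be read against 9.48% of all genes higher and 16.5% lower, 3 of 9 immunoproteasome genes were higher, Psmb8 (1.04), Psmb9 (0.92) and Psmb10 (0.79), and 3 of 4 class I-like genes, among them Hfe (1.26) and H2-M3 (0.90). Of 6 loading genes, 3 were lower, among them Calr (-1.03) and Canx (-0.87), as were 2 of 7 regulators, Rela (-0.82) among them, and 2 of 3 receptors, Lilr4b (-1.64) and Lilrb4a (-0.84).

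In B cells, 3 of 9 genes tested were higher in ntCZC and 1 lower, against 15.2% and 18% of 4112 genes. H2-D1 was 2376, 3143, 1461 and 3157 CPM in ntCZC het replicates 1 to 4 and 2635 and 2502 CPM in null replicates 2 and 4, and 754 to 1360 CPM in the 8 tissue libraries (median 1200). The kinds did not overlap, and the log2 difference was 1.17 (SE 0.16, adjusted p = 2.28e-05). Tap2 was 69.9, 90.8, 59.9 and 168 CPM in the het replicates and 104 and 81.2 CPM in the null ones, above the 12.4 to 49.2 CPM of tissue (log2 1.08, SE 0.28, adjusted p = 0.00544). Of all genes, 4.79% were higher and 6.79% lower in ntCZC B cells without overlap. H2-Q4 ran from 149 to 598 CPM (median 367) in ntCZC and from 95.2 to 186 CPM (median 146) in tissue, overlapping only through ntCZC het replicate 3 (log2 1.35, SE 0.25, adjusted p = 0.000456).

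B2m moved the other way in B cells, from 1073 to 1797 CPM in tissue (median 1556) down to 611 to 1141 CPM in ntCZC (median 958), a log2 difference of -0.75 (SE 0.16, adjusted p = 0.00143), with the ranges overlapping between 1073 and 1141 CPM. H2-K1 averaged 1832 ± 552 CPM (n = 6) and 1679 ± 251 CPM (n = 8) and did not differ detectably (log2 0.09, interval of 2 SE from -0.24 to 0.42, adjusted p = 0.713). Of the lists, 2 of 9 immunoproteasome genes were higher, Psmb8 (1.17) and the activator subunit Psme2 (0.67), and 1 lower, the nuclear activator Psme3 (-1.54), near the 15.2% of all genes higher and 18% lower. H2-T22 was the 1 class I-like gene of 2 that rose (0.79), while 2 of 6 loading genes, Canx (-1.15) and Calr (-0.91), and 3 of 10 regulators, among them Nfyb (-1.16), fell.

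Other measures moved with the kind of library in both classes. Mitochondrial RNA made up 18915 to 25845 CPM of the ntCZC monocytes and 78197 to 184082 CPM of the tissue monocytes, and 43418 to 54952 against 112726 to 176956 CPM of the B cells. The monocytes held 3650 to 6491 UMIs per cell in ntCZC and 1314 to 4141 in tissue, and the B cells 2230 to 13132 and 969 to 2806. The 72 epithelial markers summed to 227 to 405 CPM in ntCZC monocytes, with 4 to 7 markers present, and to 789 to 2347 CPM in tissue monocytes, with 21 to 52 present, and in B cells to 54.5 to 187 CPM (2 to 9 present) and 674 to 1704 CPM (34 to 59 present). Haemoglobin summed to at most 130 CPM in ntCZC B cells and to 130 to 21277 CPM in tissue B cells. The 8 B cell markers themselves summed to 6528 to 11043 CPM in ntCZC B cells and 3853 to 6493 CPM in tissue B cells, and the 8 plasma cell markers, which include the light chain gene Iglc2, to 1775 to 3219 and 882 to 1386 CPM. Nonclassical monocyte markers summed to 4655 to 5552 CPM (median 5152) in ntCZC monocytes and 2317 to 4982 CPM (median 4194) in tissue monocytes. For classical monocyte markers the sums were 538 to 901 CPM (median 735) and 758 to 1269 CPM (median 939). The 8 macrophage markers had a median sum of 33.7 CPM in ntCZC monocytes (2.61 to 428) and 334 CPM in tissue monocytes (36.2 to 1757), and the 8 endothelial markers ran from 11.1 to 96.8 and from 105 to 272 CPM. Of the 28 class lists, 6 summed lower in ntCZC monocytes without overlap and 0 higher, and 12 lower and 2 higher, those 2 lists of B and plasma cells, in ntCZC B cells. Their part in the differences was not tested.

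**Figure D4:**
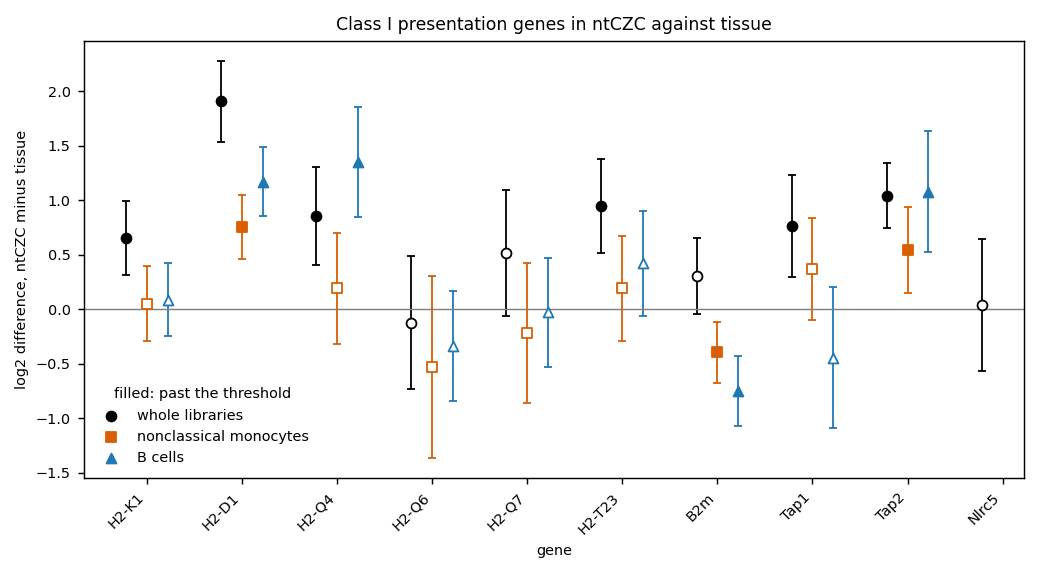
Log2 difference in expression, ntCZC minus tissue, of each gene in whole libraries (black circles), nonclassical monocytes (orange squares) and B cells (blue triangles), with bars of 2 SE, where filled symbols passed the adjusted p threshold. H2-D1 and Tap2 are filled and above 0 in each (H2-D1 1.91, 0.75 and 1.17), B2m is filled and below 0 in both cell classes, and Nlrc5 was tested in whole libraries only.

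The share of H2-D1 among the classical heavy chains was higher without overlap in ntCZC than in tissue in whole libraries, B cells and T cells, and overlapped in nonclassical monocytes and macrophages. As a share of the UMIs of H2-K1 and H2-D1 together, a measure taken up after the values were seen and so given with no test, H2-D1 made up 58.5% to 67.7% (median 65.8%) in the ntCZC libraries and 32.3% to 55.3% (median 47.3%) in tissue, with no overlap and with ntCZC wt replicate 3 included. In nonclassical monocytes the share was 61.8% to 69.4% (median 67.5%, n = 7) against 40.3% to 66.0% (median 56.4%, n = 8). These overlapped only through tissue wt replicate 2 (66.0%), as the next highest tissue library, het replicate 2, was at 61.6%. In B cells it was 52.2% to 61.6% (median 59.5%, n = 6) against 28.6% to 48.5% (median 41.7%, n = 8), with no overlap. T cells gave 44.2% and 49.0% in the 2 ntCZC libraries with enough of them and 28.0% to 41.6% (median 35.6%) in 8 tissue libraries, also without overlap. Macrophages gave 48.5% in the 1 ntCZC library with enough of them, inside the 36.2% to 56.4% (median 48.9%) of 9 tissue libraries. In the PBMC library, from a younger mouse, the share was 46.9% in all cells, 50.5% in B cells and 42.8% in T cells. A share within a library does not depend on its total, though reads exchanged between the chains, or alleles that count unequally, would enter it.

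**Figure D5:**
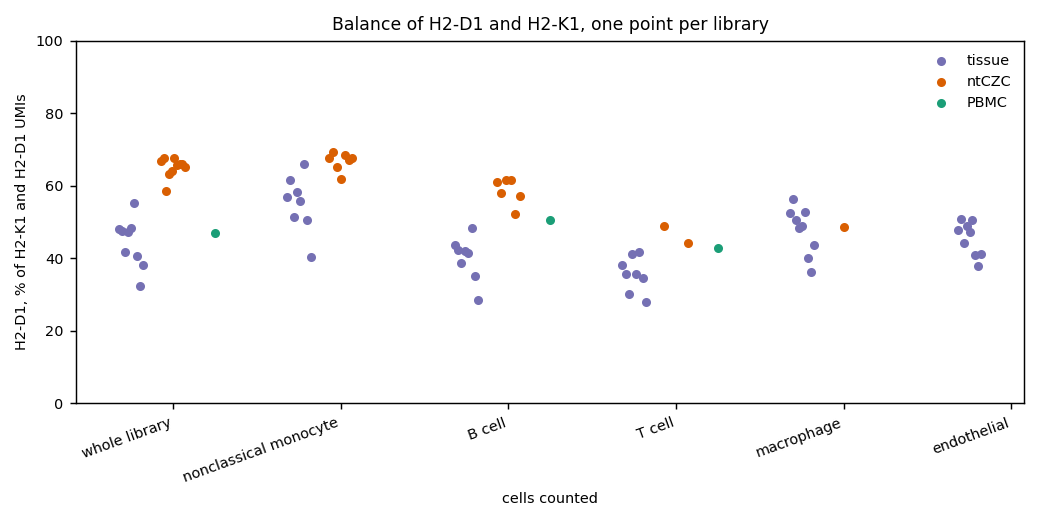
Share of H2-D1 in the UMIs of H2-K1 plus H2-D1, in percent, for whole libraries and gated classes of tissue, ntCZC and PBMC, where each point is a library. The whole ntCZC libraries lie at 58.5% to 67.7% and the tissue libraries at 32.3% to 55.3%, while the PBMC library lies at 46.9%. In B and T cells the PBMC library lies at 50.5% and 42.8%, just above the highest tissue library (48.5% and 41.6%) and below the ntCZC libraries.

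The PBMC library, the only one of unsorted blood cells, gives levels with their counting error and no test, its mouse being far younger. H2-D1 was 1538 CPM (exact Poisson 95% interval 1474 to 1604, counting error only) and H2-K1 1741 CPM (1673 to 1811). B2m was 1572 CPM (1508 to 1639), H2-Q7 474 CPM (439 to 511), H2-T23 237 CPM (212 to 264), H2-Q4 131 CPM (113 to 152), Tap1 110 CPM (93.2 to 128), H2-Q6 106 CPM (89.9 to 125), Tap2 87.2 CPM (72.5 to 104) and Nlrc5 33.8 CPM (24.9 to 44.8). H2-D1 thus lay above the 9 tissue libraries and below 9 of the 10 ntCZC libraries, and H2-Q7 above every library of either kind that has a group. Among its classes, NK cells held the most heavy chain RNA (8778 CPM summed, 46 cells), then T cells (4864 CPM, 256 cells) and B cells (3479 CPM, 229 cells), the order also seen in tissue.

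The Nalcn genotypes were compared to ask whether loss of the channel goes with a change in these genes, and none of the 10 passed the threshold in any of the 12 contrasts. Sex was unevenly spread over the genotypes. Of the ntCZC libraries, those of wt, het replicates 1, 2 and 4 and null replicate 2 were male, and the others female. Both het tissue libraries were male. Genotype and sex can thus be told apart only in part, even with sex as a covariate. In whole ntCZC libraries, 0 of 10 genes were called in null against wt (0% of 9379 genes), in het against wt (0.107%) and in null against het (0%). H2-D1 was 2978 and 681 CPM in wt replicates 1 and 3, 3606, 3751, 2256 and 4177 CPM in het replicates 1 to 4, and 3320, 3719, 2526 and 2831 CPM in null replicates 1 to 4. B2m was 1667 and 316 CPM in wt, 1870, 1729, 1054 and 2339 CPM in het, and 1252, 1925, 1146 and 1642 CPM in null. The wt values are set apart by replicate 3, the library richest in haemoglobin, so that wt rests on 1 other library. Haemoglobin also made up 25.2%, 32.4% and 25.3% of UMIs in null replicates 1, 3 and 4, against 6.16% in null replicate 2. It was 0.333% to 6.04% in the het libraries and 1.67% in wt replicate 1. These UMIs are part of the total behind each CPM. At an unadjusted p under 0.05, 3 of 10 genes were higher in null than in wt, H2-D1 (log2 0.90, SE 0.35), H2-T23 (1.06) and B2m (0.89, SE 0.37), each at adjusted p = 0.983, and 0 of 10 in the other contrasts. These counts are to be read against those over all genes in the next paragraph. Of the listed genes, the liver-type class I gene H2-Q10 was called lower in het than in wt (log2 -3.15, adjusted p = 0.0454).

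Counts of 0 came with few calls over all genes. At an unadjusted p under 0.05 the same fits held 360, 741 and 686 of the 9379 genes in null against wt, het against wt and null against het. DESeq2 called 14, 106 and 23, no class I gene of the 10 among them. In ntCZC nonclassical monocytes, null against het, 0 of 9 genes tested were called (0% of 4999), with 0 of 9 at an unadjusted p under 0.05. H2-D1 was at log2 -0.02 (SE 0.22, interval of 2 SE from -0.46 to 0.42) and H2-K1 at log2 -0.11 (SE 0.30, interval from -0.71 to 0.48).

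In tissue, genotypes were compared within endothelial cells, macrophages, B cells and T cells, since the pools differ in their cells. In each of these 8 contrasts with wt, 0 of the 9 or 10 genes tested were called, and 0% of the 12149, 5296, 7573 and 8571 genes tested in the 4 classes. At an unadjusted p under 0.05 there were 2 of 10 genes in endothelial het against wt, Tap1 (log2 0.73) and H2-Q4 (0.66), both at adjusted p = 0.789, 1 of 10 in T cell het against wt, H2-Q7 (0.54, adjusted p = 0.666), and 0 in the other 6. The counts over all genes to set beside these close the next paragraph. Endothelial H2-Q4 was 477 and 268 CPM in het replicates 1 and 2, 214 and 229 CPM in null replicates 2 and 3, and 317, 179, 245, 236 and 205 CPM in wt replicates 1 to 5. The genotypes overlapped, and the high value was that of a single het library. Endothelial Tap1 was 177 and 101 CPM in het, 71.0 and 84.0 CPM in null, and 101, 63.7, 89.2, 124 and 130 CPM in wt. T cell H2-Q7 was 829 and 992 CPM in het, 660 and 677 CPM in null, and 549 to 975 CPM in the 4 wt libraries with enough T cells.

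The log2 differences in het against wt were positive in 10 of 10 genes in endothelial, B and T cells (medians 0.56, 0.25 and 0.23) and in 6 of 9 in macrophages (0.25). In null against wt they were positive in 4 of 10 genes in endothelial cells (median -0.03), 5 of 10 in B cells (0.02), 1 of 9 in macrophages (-0.26) and 0 of 10 in T cells (-0.24), while the median over all genes lay between -0.03 and 0.01 in each of the 8 contrasts. In ntCZC monocytes, null against het, 0 of 9 were positive (median -0.31). The genes of a library move together and the classes come from the same libraries, so these are not repeated findings. Each tissue contrast sets 2 libraries against 5 or fewer, and the monocyte contrast too rests on few libraries. Over the 12 genotype contrasts the median SE of the genes was 0.27 to 0.45 on the log2 scale, and differences of 0.89 to 1.06 went uncalled. At an unadjusted p under 0.05, all-gene counts in tissue, null and het against wt, were 672 and 761 of 12149 genes in endothelial cells. In macrophages they were 237 and 219 of 5296. In B cells they were 551 and 650 of 7573, and in T cells 534 and 626 of 8571. DESeq2 called 13, 15, 7, 0, 5, 2, 2 and 15 genes in the same order.

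Tissue wt replicate 4 stood apart for some of the genes. It held 111.8 CPM of Tap1 against 28.6 to 55.2 CPM in the other 8 tissue libraries with a group, 43.3 CPM of Nlrc5 against 7.35 to 16.6 CPM, 218 CPM of H2-Q6 against 52.9 to 119 CPM and 343 CPM of H2-Q7 against 84.1 to 204 CPM. H2-D1, at 686 CPM, was not high in it. The library is 1 of the 5 wt tissue libraries that enter the comparisons above.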

How the data were processed

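Single-cell libraries (10x 3′, version 3 chemistry) were counted by the authors with Cell Ranger against mm10, as version 2.1.1 per the labels and 3.0.2 per the file headers. The deposited filtered matrices hold raw UMI counts of genes per cell barcode, 1 matrix per library, and were used as deposited. Each library took its group from title and strain. Tissue null replicate 3 took it from the strain alone, as its title names no genotype.

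Gating by markers used barcodes that detected 200 or more genes and took 25% or less of their UMIs from mitochondrial genes. Scrublet (in scanpy 1.11.5, expected rate 0.8% per 1000 barcodes, at most 25%) removed doublets in tissue, and none were removed in ntCZC or PBMC. Counts were summed per library, or per library and class where at least 20 cells were gated, and fitted over all genes with edgeR 4.0.16 in R 4.3.3 (TMM, filterByExpr, quasi-likelihood F test, Benjamini-Hochberg, threshold 0.05). Sex was a covariate, and the library a block for compartments. CPM are not TMM-scaled, so a fitted difference can depart from the ratio of mean CPM. Neighbouring classes were compared by exact sign-flip permutation of log2(CPM + 1). Promoters came from RefSeq, and gene coordinates from GENCODE vM21. The fits were tested on simulated counts of a fixed spread. A 2-fold change was recovered in 57.1% of changed genes in whole libraries, 40.0% in nonclassical monocytes, 18.2% in B cells and 34.4% in compartments. For a 4-fold change these were 100%, 100%, 92.5% and 99.0%. A gene that was not called may therefore still differ by 2-fold. Genotype contrasts were not simulated, and uncalled genes may differ by more there. Their widest interval bound was 2.97 on the log2 scale, in whole ntCZC libraries, null against wt. The alternatives were DESeq2 1.42.0, RLE scaling, a low filter (a UMI in 2 libraries), other barcode filters and gates, no doublet removal, no sex covariate, haemoglobin left out, the replicate number as a block and leaving out each library. For ntCZC against tissue, genotype as a covariate and het and null libraries alone were added after seeing the data.

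All 10 genes entered each comparison where their counts allowed a test. Genes of the 10 not named for B cells of ntCZC against tissue, or for the genotypes, did not pass the threshold there. Of the pathway lists, at most 5 called genes per direction were named, those with the largest log2 difference. Other names were chosen after their values were seen, and 1 gene of the lists is not reported here. H2-T10, H2-K2 and H2-Bl of the lists and the marker Ahsp had no matching symbol. The genes and lists were chosen with earlier results of these data known. Over 25 pairs of libraries of 1 group, none agreed within sampling noise (lowest chi-square per degree of freedom 4.75). Poisson intervals cover counting error only, and intervals of 2 SE the spread between libraries.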

Additional observations from a re-analysis of the deposited data

Results flagged for a closer look

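Of 208 groups of 4 to 10 libraries, 25 held a library far from the others on Dixon's test, where chance flags about 1 in 20. Tissue wt replicate 4 accounted for most. In whole tissue libraries it held 218 CPM of H2-Q6 (others 52.9 to 119), 343.5 CPM of H2-Q7 (84.1 to 204), 111.8 CPM of Tap1 (28.6 to 55.2) and 43.3 CPM of Nlrc5 (7.35 to 16.6). In its leukocytes H2-Q6 was 277 CPM (67.8 to 117), Tap1 166 CPM (53.5 to 108) and Nlrc5 60.1 CPM (13.6 to 28.9). In its epithelium H2-Q6 was 64.2 CPM (8.76 to 28.4), H2-Q7 111 CPM (16.8 to 54.0) and Nlrc5 19.5 CPM (1.96 to 8.40). In its mesenchyme H2-Q4 was 336 CPM (40.9 to 162) and Nlrc5 20.6 CPM (3.02 to 11.3). In its B cells Tap1 was 250 CPM (74.1 to 118) and Nlrc5 75.8 CPM (12.7 to 29.8, or 17.5 to 21.7 among wt), and in its macrophages H2-Q6 was 122 CPM (27.4 to 42.2 among wt).

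Other tissue libraries were far from the rest for single genes. B2m was 1795 CPM in whole tissue wt replicate 2 (others 911 to 1292), and H2-D1 was 820 CPM in its epithelium (206 to 335). B2m in endothelium of wt replicate 1 was 3038 CPM (other wt 1927 to 2198), and Tap2 in its macrophages was 82.1 CPM (40.8 to 50.9). In endothelium of het replicate 1, H2-Q4 was 477 CPM (179 to 317) and H2-Q7 747 CPM (186 to 452). Of the ntCZC libraries, het replicate 4 held 234 CPM of H2-Q4 (83.9 to 143), and het replicate 3 held 148 CPM of H2-T23 (other het 305 to 335) and 35.6 CPM of Tap1 in B cells (109 to 118).

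Among the 2 tissue libraries without a group, which enter no comparison, library 2 lay above every tissue library with a group for 6 of the 10 genes: H2-K1 at 1548 CPM (highest with a group 1437), H2-D1 at 1294 CPM (1250), H2-Q4 at 142 CPM (111), H2-Q6 at 235 CPM (218), H2-Q7 at 343.8 CPM (343.5) and Tap2 at 47.9 CPM (43.8).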

How the results depend on the processing

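No difference of a gene changed direction past the threshold under any alternative. The counts of genes called in leukocytes and endothelium against epithelium (10 each), in whole ntCZC libraries (6) and in ntCZC B cells (4) held within 1.5 times under every alternative run, with ranges of 10 to 10, 10 to 10, 6 to 7 and 4 to 5. The count of 0 in the 12 genotype contrasts was 0 in every alternative. So was that of neighbouring classes past the threshold, which says little, as the exact test could hardly pass. In nonclassical monocytes the count of 3 ranged from 1 to 3 when each library was left out and from 2 to 3 under the other alternatives, and was 1 (H2-D1) both with genotype as a covariate and with het and null libraries alone, 2 alternatives chosen after seeing the data (6 and 7 in whole libraries, 4 and 4 in B cells). In mesenchyme the count of 9 ranged from 7 to 9 when each library was left out, and was 4 with the looser gate (H2-D1, H2-K1, H2-Q4 and Tap2; the cause was not tested). Libraries of the same replicate number showed no steady likeness: correlations of deviations ran from -0.430 to 0.273 over 13 pairs of genotypes and from -0.0888 to 0.102 over 6 pairs of kinds. This cannot tell whether blood and organs came from the same mice, which the labels do not name. Sex and age match between ntCZC and tissue for wt replicates 1 and 3, het replicate 2 and null replicate 2. With the replicate block the counts were 6 in whole libraries, 2 in monocytes, 4 in B cells and 0 in every genotype contrast, and without the library block 10, 10 and 8 in the compartments. Over all genes, the block raised the calls in tissue B cells from 0 to 20 higher and 32 lower (null) and 15 and 89 (het), and the low filter to 57 and 50 and to 18 and 175, without a gene of the 10. In T cells the low filter gave 43 and 48 (null) and 46 and 185 (het). For ntCZC against tissue the low filter gave 3269 higher and 7500 lower genes in whole libraries, 823 and 2480 in monocytes and 457 and 1762 in B cells. Depth limits Nlrc5 most: it was too low to be tested in monocytes and B cells of ntCZC against tissue, and the 2 ntCZC wt libraries hold 1 with 11 passing cells.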
